A study of Mus musculus with 9 samples.

Results

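The tetraspanins described here are 9 genes (Cd9, Cd37, Cd53, Cd63, Cd81, Cd82, Cd151, Tspan13 and Tspan32) of the 20732 in the count table, taken by gene symbol. They were chosen with their values in this same comparison in view, so their levels and changes are given as a description without a test. RNA came from group 2 innate lymphoid cells (ILC2s), lymphocytes without antigen receptors that secrete type 2 cytokines, obtained from C57BL6/J mouse pancreas. The sort kept live KLRG1-positive leukocytes (CD45-positive) that carried neither CD3, B220 nor the other lineage markers. The PBS group held 4 libraries from mice given PBS, titled naive in the labels, and the IL-33 group held 5 libraries from mice given 200 ng of IL-33, an alarm cytokine to which ILC2s respond through the receptor ST2. Injections were on days 0 and 1 and the pancreas was taken on day 5. The design text of the series gives 5 PBS and 4 IL-33 mice, and the sample labels were followed. Neither age nor sex of the mice is given in the sources used here, and nothing ties a library to a mouse of its own, so the tests measure spread between libraries, which may be technical.

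Tetraspanins are small proteins that cross the membrane as a bundle of helices and carry a large outer loop. They gather integrins, immunoglobulin-type proteins, proteases and signalling receptors into patches of membrane, and some ride through endosomes and leave the cell on secreted vesicles. In lymphocytes they are known for tuning adhesion, receptor signalling and migration, and Cd9, Cd63 and Cd81 are common markers of extracellular vesicles.

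The promoters of 4 of the genes are shown because these are the genes whose levels passed the threshold of the comparison below, and because they differ widely in base content. Each is the RefSeq window on GRCm38.p6 from 250 bases before to 50 bases after a transcript start, written 5′ to 3′ on the strand of the gene. Capitals mark the GC box GGGCGG and the TATA box TATAAA, searched on both strands.

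Cd9, chr6:125494711-125495010, minus strand: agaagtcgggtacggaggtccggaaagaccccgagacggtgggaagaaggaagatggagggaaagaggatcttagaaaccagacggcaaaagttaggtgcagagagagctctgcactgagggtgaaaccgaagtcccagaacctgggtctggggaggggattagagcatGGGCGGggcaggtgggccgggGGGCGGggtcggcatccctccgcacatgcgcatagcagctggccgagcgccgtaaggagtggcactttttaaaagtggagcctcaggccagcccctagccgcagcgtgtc

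Cd81, chr7:143052500-143052799, plus strand: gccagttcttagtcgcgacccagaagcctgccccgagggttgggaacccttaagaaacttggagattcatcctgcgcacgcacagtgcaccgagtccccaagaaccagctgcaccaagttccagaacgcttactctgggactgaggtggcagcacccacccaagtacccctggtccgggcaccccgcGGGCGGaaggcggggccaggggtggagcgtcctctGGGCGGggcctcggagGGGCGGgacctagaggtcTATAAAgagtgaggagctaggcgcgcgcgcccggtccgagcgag

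Tspan32, chr7:143004796-143005095, plus strand: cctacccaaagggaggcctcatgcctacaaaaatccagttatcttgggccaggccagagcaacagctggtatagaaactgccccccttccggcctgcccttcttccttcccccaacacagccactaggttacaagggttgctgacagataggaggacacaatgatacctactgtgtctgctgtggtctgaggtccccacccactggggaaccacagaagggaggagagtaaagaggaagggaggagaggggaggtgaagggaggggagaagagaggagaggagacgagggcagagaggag

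Tspan13, chr12:36042429-36042728, minus strand: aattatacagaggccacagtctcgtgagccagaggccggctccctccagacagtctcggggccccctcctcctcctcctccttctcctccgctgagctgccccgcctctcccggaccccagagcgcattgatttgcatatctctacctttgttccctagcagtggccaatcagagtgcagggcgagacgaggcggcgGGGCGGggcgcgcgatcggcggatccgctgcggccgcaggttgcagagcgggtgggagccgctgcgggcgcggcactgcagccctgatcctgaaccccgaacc

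The Cd81 window held 23 CpG dinucleotides, 3 GC boxes and a TATA box, the only TATA box among the 13 windows of the 9 genes. The Cd9 window held 18 CpG and 2 GC boxes, and that of Tspan13 held 26 CpG and 1 GC box. The Tspan32 window was unlike these, with 2 CpG and neither motif. Over all 32851 RefSeq windows the median was 7 CpG, 35.7% held a GC box and 13.6% a TATA box. An AP-1 site, TGANTCA, searched on both strands and held by 7.81% of all windows, was in 0 of the 13. A match of letters is a description of the window and no evidence of binding.

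The genes lie on 6 chromosomes of GRCm38. Tspan32 (chromosome 7, 143005046 to 143019644) and Cd81 (143052739 to 143067934) are neighbours on the same strand, 33.1 kb apart. Cd151 (141467392 to 141471473) lies 3.77 kb from Tspan4, and Cd82 (chromosome 2, 93419111 to 93463140) lies 84.6 kb from Tspan18. Cd9 is at chromosome 6, 125460266 to 125494791, and Tspan13 at chromosome 12, 36014557 to 36042500. Cd37 is on chromosome 7 (45233632 to 45239115), Cd53 on chromosome 3 (106759921 to 106790149) and Cd63 on chromosome 10 (128900989 to 128912822).

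Total counts per library lay between 14216976 and 21020023. The ILC2 genes Gata3 and Klrg1 were abundant in both groups, at 4509 ± 579 and 708 ± 81.9 CPM (SD, n = 4) with PBS and 4025 ± 1584 and 1428 ± 199.6 CPM (SD, n = 5) with IL-33. Here CPM is the usual measure of a gene's share of the counts of its library, after TMM scaling of the library sizes. Il1rl1, which encodes the IL-33 receptor, was at 1179 and 864 CPM and Ptprc, which encodes CD45, at 813 and 725 CPM. PBS replicate 4 stood apart, with 29.8% of its counts in 14 acinar genes (led by Cela2a and Ctrb1) of the exocrine pancreas, against 0.0864% to 8.50% in the other 8 libraries. Its summed ductal markers (led by Spp1 and Muc1) stood at 624 CPM against 13.1 to 82.2 CPM elsewhere, and its endothelial markers (led by Pecam1 and Plvap) at 377.5 CPM against 31.8 to 177 CPM. By group, endothelial markers summed to 56.1 to 377.5 CPM with PBS and 31.8 to 86.2 CPM with IL-33, and 2 of 10 fell, Kdr (17.7 and 0.261 CPM) and Tie1 (5.21 and 0.188 CPM).

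Of 11 ILC2 genes listed, 3 rose (Klrg1, Il13 and Il5) and 1 fell, where 25.2% of all genes tested were called. The gene that fell was Il7r, at 651 CPM with PBS and 269 CPM with IL-33. Of the acinar list 0 of 14 were called. Summed markers of platelets, a cell type rich in Cd9, led by Pf4 and Itga2b, were at 1.06 to 5.78 CPM with PBS and 1.44 to 3.14 CPM with IL-33, with 0 of 5 genes seen in every library. Pf4 was at 0.432 and 1.65 CPM, Ppbp at 0.693 and 0.325, Itga2b at 1.44 (5.78 in PBS replicate 2 and 0 in the other PBS libraries) and 0.0929, Gp1bb at 0.738 (2.95 in PBS replicate 4 alone) and 0, and Gp5 at 0 and 0.225 CPM. Fibroblast markers (Col1a2, Col3a1 and others) summed to 4.09 to 28.9 and 0.938 to 10.1 CPM, and 1 of 3 tested genes, Col1a2, fell (6.78 and 0.31 CPM). NK cell markers (Prf1 and Klrb1c) summed to 0 to 4.87 and 0.0886 to 1.02 CPM, and endocrine markers (led by Ins2 and Ins1) to 0.253 to 303.7 and 0 to 13.9 CPM. B cell markers summed to 6.28 to 25.3 and 57.9 to 102 CPM, nearly all from Cd79b, which rose, with Ms4a1 at 0 in all PBS libraries and in all IL-33 libraries but IL-33 replicate 3 (0.789 CPM). T cell markers summed to 224 to 304 and 244 to 347 CPM, nearly all from Cd3g. Markers of macrophages and dendritic cells (led by Xcr1 and Lyz2) summed to 13.6 to 39.7 and 32.3 to 85.7 CPM. Of 5 tested genes of that list only Xcr1 was called, higher. Adgre1 had a lower mean (5.03 and 1.12 CPM), and Cd14, Lyz2 and C1qb had higher means. Markers of mast cells and granulocytes (led by Cpa3 and Fcer1a) summed to 15.4 to 45.7 and 94.1 to 357 CPM, mostly from Cpa3, which was called higher. Only 4 of the 12 mast cell and granulocyte genes listed were in the count table. Erythroid markers (led by Hba-a1 and Hba-a2) summed to 167 to 323 and 368 to 3563 CPM, with 4 of 4 tested genes higher. What part such reads had in the values below was not tested except where a measurement is given.

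In resting ILC2s the tetraspanin pool was led by 3 genes, Cd82, Tspan13 and Cd53. Levels of different genes were compared as CPM per kb of merged exon length. With PBS, Cd82 stood at 461 ± 127, Tspan13 at 398 ± 50.1 and Cd53 at 331 ± 58.1 CPM per kb (SD, n = 4), and the libraries of each overlapped those of the next. Cd81 followed at 180.2 ± 6.90, Cd37 at 93.7 ± 9.21 and Tspan32 at 73.8 ± 13.2 CPM per kb, each apart from its neighbours in every library. Cd9 stood at 20.8 ± 2.42 CPM per kb. Cd63, at 6.65 ± 11.6, and Cd151, at 5.01 ± 3.40, were last, with ranges that overlapped each other, and that of Cd63 reached into the range of Cd9. By percentile among the 14347 tested genes with a length, Cd82 ranked at 99.0, Tspan13 at 98.9, Cd53 at 98.6 and Cd9 at 81.8.

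With IL-33 the order changed at both ends. Tspan13 stood first at 631 ± 106 CPM per kb (SD, n = 5), above every library of Cd82, which stood at 391 ± 24.4. Cd53 stood at 371 ± 79.4, overlapping Cd82. Cd81, at 104 ± 11.8, came down to Cd37, at 98.7 ± 13.3, and on this length their ranges overlapped where those of the PBS group had not. Per kb of the longest coding transcript they stayed apart, at 168 to 218 for Cd81 and 118 to 166 for Cd37. Tspan32 stood at 44.9 ± 9.65 CPM per kb. Cd9 moved to last place at 0.494 ± 0.548, below every library of Cd151 (2.17 ± 0.233) and at the percentile of 12.4. The range of Cd63, 0.445 to 3.075 CPM per kb, overlapped that of Cd9, 0 to 1.32. Merged exons count every annotated isoform, and per kb of the longest coding transcript Tspan32 stood at 245 CPM per kb with PBS, above Cd37 at 130 (129.9), and Cd81 at 338.5, beside Cd53 at 331. Cd63, at 22.1 per kb on that length, also moved by over 1.5 times, as did Cd9, at 34.6, Cd82, at 760 (759.8), and Cd81. Cd82 and Tspan13 held the first places and Cd9, Cd63 and Cd151 the last with either length.

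**Figure D1:**
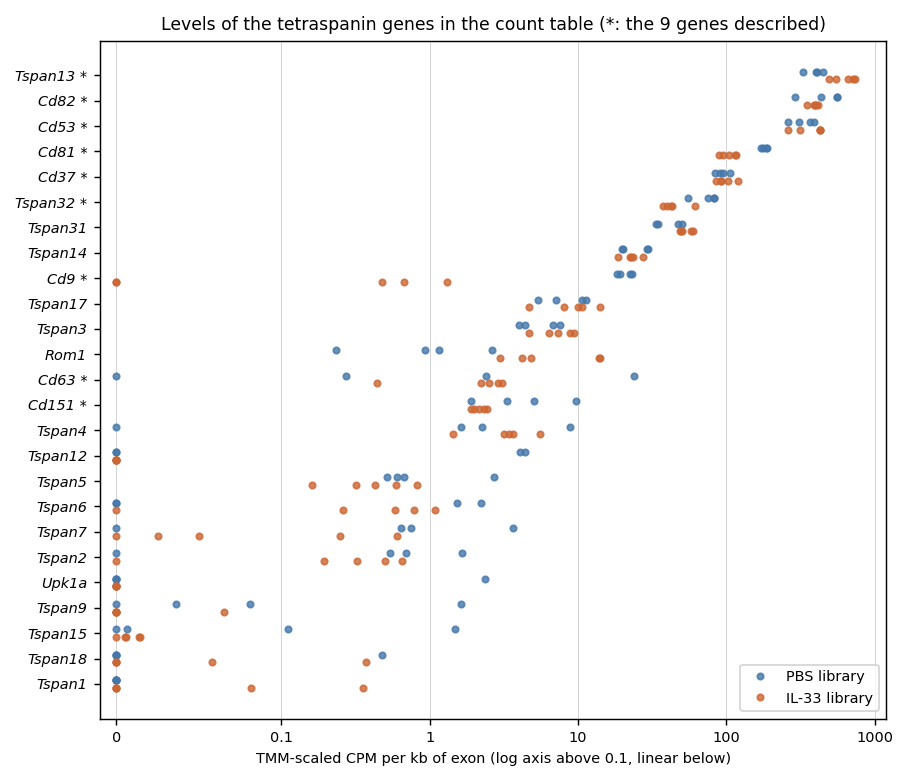
Level of each of the 25 tetraspanin genes in the count table, in TMM-scaled CPM per kb of merged exon (x axis, logarithmic above 0.1 and linear below), with a point for each of the 4 PBS (blue) and 5 IL-33 (orange) libraries. The 9 genes described, marked with a star, include the 6 highest with PBS, and the Cd9 points of the IL-33 group (0 to 1.32) lie far below those of the PBS group (18.2 to 23.2).

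The pool as a whole stayed in one range while its make-up differed. Summed over the 25 tetraspanin genes in the table, the level was 1528 to 1772 CPM per kb in the PBS libraries and 1452 to 1971 in the IL-33 libraries, which overlap. The 9 genes made up 92.3% to 95.3% of that sum. Tspan13 held 24.0% ± 3.02 of it with PBS (SD, n = 4) and 35.9% ± 2.93 with IL-33 (SD, n = 5). Cd81 went from 10.9% ± 1.07 to 5.97% ± 0.764, Tspan32 from 4.45% ± 0.854 to 2.56% ± 0.429 and Cd9 from 1.25% ± 0.126 to 0.0261% ± 0.0279. Cd53 held 20.04% ± 4.31 and 21.1% ± 2.88, Cd82 27.5% ± 6.70 and 22.5% ± 2.05, and Cd37 5.63% ± 0.304 and 5.64% ± 0.494, each difference smaller than the larger SD. Among the 9 genes alone and per kb of the longest coding transcript, Tspan13 held 21.5% and 34.7% and Tspan32 10.4% and 6.44%.

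**Figure D2:**
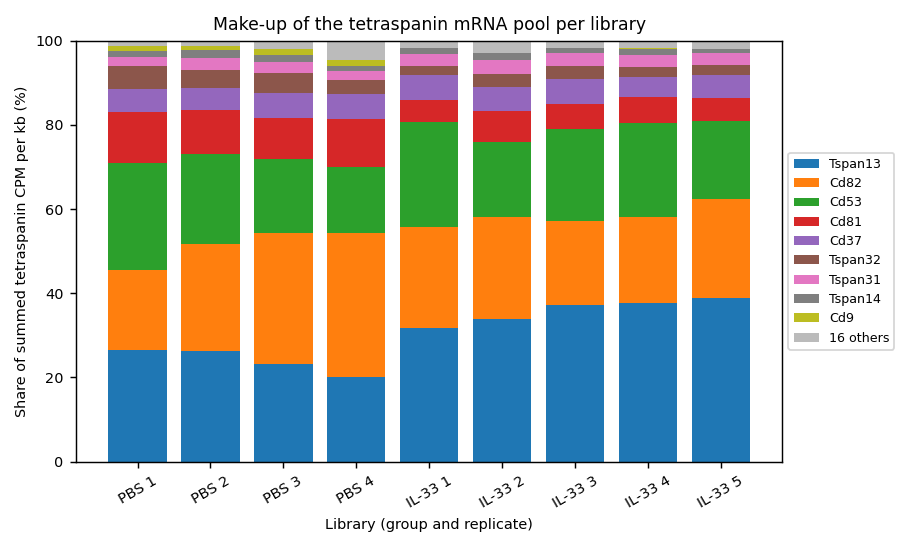
Share of each tetraspanin gene in the summed tetraspanin CPM per kb (y axis, percent) in each of the 9 libraries (x axis). Tspan13, the lowest block, holds 20.05% to 26.4% of the pool in the PBS libraries and 31.7% to 38.8% in the IL-33 libraries, and the Cd9 block nearly vanishes with IL-33.

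Comparing IL-33 with PBS library by library, 4 of the 9 genes passed an adjusted p of 0.05 in edgeR's quasi-likelihood test, 1 higher (Tspan13) and 3 lower (Cd9, Cd81, Tspan32). Over all 14405 genes tested 25.2% did so, 13.7% higher and 11.6% lower. The groups did not overlap for 3 of the 9 (Cd9, Cd81, Tspan13), against 26.1% of all genes (15.3% higher and 10.8% lower). Since the genes were chosen on this comparison, nothing is read from these counts. The median log2 change was -0.72 for the 9 genes and -0.05 for all genes tested.

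**Figure D3:**
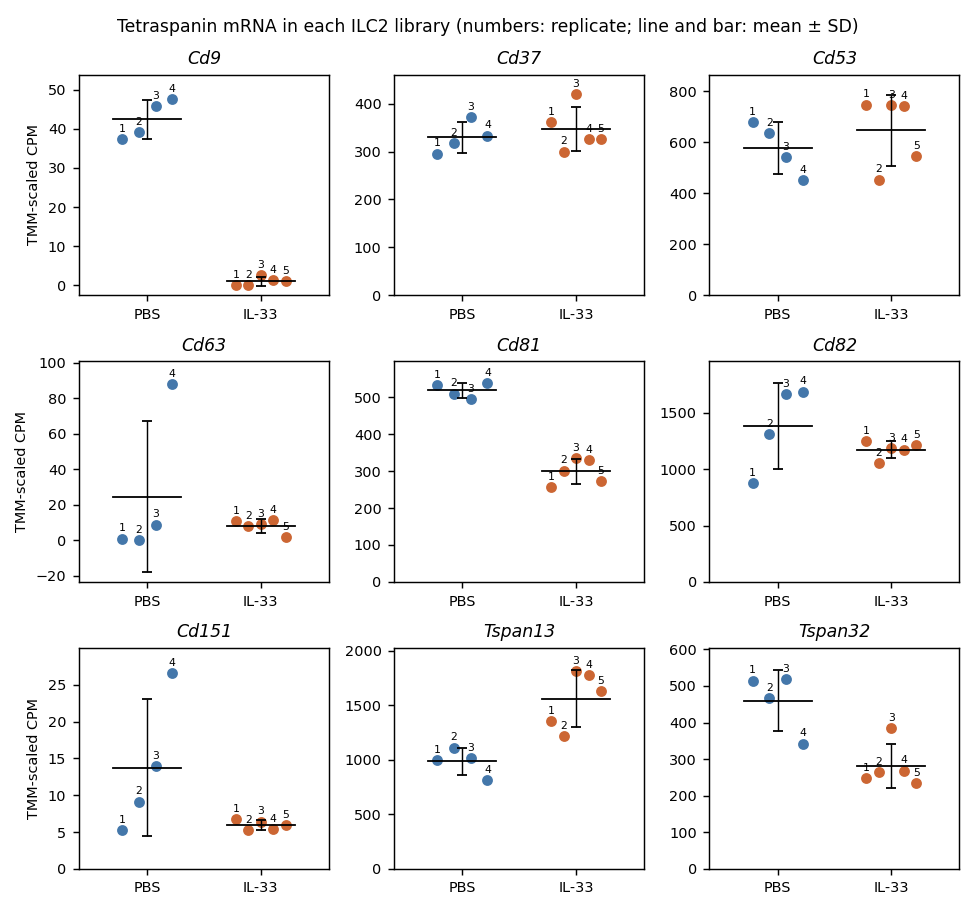
TMM-scaled CPM (y axis) of the 9 tetraspanin genes in each library, numbered by replicate, with the group mean as a line and the SD as a bar. The PBS and IL-33 points are apart for Cd9, Cd81 and Tspan13, and PBS replicate 4 is far above the other libraries for Cd63 (88.1 CPM) and Cd151 (26.7 CPM).

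Cd9 and Cd81 are close relatives that bind the immunoglobulin-type proteins Igsf8 and Ptgfrn and sit beside integrins, and both were lower with IL-33. Cd9 stood at 37.3, 39.2, 45.7 and 47.5 CPM in PBS replicates 1 to 4. In IL-33 replicates 1 to 5 it stood at 0, 0, 2.69, 1.38 and 0.975 CPM. Every PBS library was at least 13.8 times the highest IL-33 library, and the PBS libraries lay close together. The PBS values rest on 499 to 904 reads and the IL-33 values on 0, 0, 58, 29 and 22, where a count of 0 allows up to 0.1655 and 0.178 CPM in IL-33 replicates 1 and 2 (3 counts, counting error only). The means were 42.4 ± 4.95 (SD, n = 4) and 1.01 ± 1.12 CPM (SD, n = 5). The log2 change was -5.36 ± 0.95 (SE), or 41.0-fold lower. In bulk RNA, fewer cells with the transcript and less of it per cell cannot be told apart. Cd9 was 39.2 CPM in PBS replicate 2, which had the lowest acinar share (0.0864% of counts), and 47.5 CPM in PBS replicate 4, which had the highest (29.8%). Endothelial markers (2 of 10 called lower) and the fibroblast gene Col1a2 also had lower means with IL-33. Of the platelet genes, Itga2b, Gp1bb and Ppbp had lower means and Pf4 and Gp5 higher ones. With PBS, Itga2b was seen in replicate 2 alone and Gp1bb in replicate 4 alone. The part of these markers in the Cd9 levels was not tested.

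Cd81, known from the B cell co-receptor and as an organiser of immune synapses, was an even signal within each group after TMM scaling. It stood at 533, 509.8, 495 and 537 CPM with PBS and at 257, 301, 335, 329 and 272 CPM with IL-33. The lowest PBS library was 1.48 times the highest IL-33 library. The means were 519 ± 19.9 (SD, n = 4) and 299 ± 34.1 CPM (SD, n = 5). The log2 change was -0.80 ± 0.10 (SE). The coefficient of variation of the PBS libraries, 3.83%, was the lowest of the 9 genes. This evenness rests on the scaling of PBS replicate 4, whose TMM factor was 0.5325 against 0.990 to 1.169 in the other libraries. That library held 5645 Cd81 reads in 19725838 counts, and the other PBS libraries held 8473 to 10516 reads. With library size alone the log2 change was -0.67 and did not pass the threshold.

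Tspan32 (also Tssc6), Cd37 and Cd53 are tetraspanins of blood cells, and they differed from each other in this comparison. Tspan32 stood at 514.5, 466, 518 and 342 CPM with PBS and at 247, 264, 384, 269 and 234 CPM with IL-33. The groups overlapped through PBS replicate 4 and IL-33 replicate 3 alone. The means were 460.2 ± 82.0 (SD, n = 4) and 279.8 ± 60.1 CPM (SD, n = 5). The log2 change was -0.72 ± 0.17 (SE).

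Cd37, which in B cells and T cells restrains and directs signalling, stood at 296, 318, 373 and 334 CPM with PBS and at 362.5, 300.3, 421, 327 and 327 CPM with IL-33. Its groups overlapped, with a log2 change of 0.07 ± 0.12 (SE). Cd53, a partner of integrins and receptors on leukocytes, stood at 679, 635, 542 and 452 CPM with PBS and at 748, 453, 746, 741 and 546 CPM with IL-33, a log2 change of 0.16 ± 0.18 (SE). Neither difference was larger than the spread between libraries. The direction of Cd37 turned without IL-33 replicate 3 (log2 change -0.0059), and with the trend with gene length removed Cd37 was at -0.031 and Cd53 at -0.24.

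Tspan13 was the only one of the 4 that was higher with IL-33, where it had the highest level per kb of the 25 tetraspanins in the table. It stood at 999 (998.5), 1111, 1013 and 814 CPM with PBS and at 1356, 1220, 1816, 1778 and 1631 CPM with IL-33. The groups were apart, by a factor of 1.10 between the highest PBS and the lowest IL-33 library. The means were 984 ± 124 (SD, n = 4) and 1560 ± 262 CPM (SD, n = 5). The log2 change was 0.66 ± 0.15 (SE). The median log2 change was 0.40 for genes with up to 1311 exonic bases and -0.47 for the longest genes, from 6801 bases up. It was 0.13 for genes of 1312 to 2860 bases, the group that holds Tspan13. Tspan13, with 2474 exonic bases, had a log2 change of 0.40 with that trend removed and no longer passed the threshold.

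Cd82, an integrin partner also known as a suppressor of metastasis, had the highest mean level per kb in resting ILC2s. It stood at 876, 1312, 1668 and 1688 CPM with PBS and at 1249, 1054, 1184, 1175 and 1212 CPM with IL-33. The IL-33 libraries fell inside the PBS range, and their coefficient of variation was 6.24% against 27.5%. The log2 change was -0.24 ± 0.18 (SE) and did not pass the threshold. Without PBS replicate 1 it was -0.41 and passed, which is given as a description and no support for a change.

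Cd151, which binds laminin-binding integrins, and Cd63, a tetraspanin of late endosomes and secretory granules, were low. Cd63 stood at 1.01, 0, 8.85 and 88.1 CPM in PBS replicates 1 to 4 and at 10.7, 8.12, 9.24, 11.3 and 1.64 CPM with IL-33. Cd151 stood at 5.22, 9.15, 13.96 and 26.7 CPM and at 6.73, 5.22, 6.41, 5.42 and 5.94 CPM. PBS replicate 4, the library with 29.8% acinar counts, was the highest of the 9 in both genes. The acinar shares of the 4 PBS libraries were 1.25%, 0.0864%, 5.25% and 29.8%, which is the order of their Cd63 levels. With IL-33, replicate 5 had the lowest acinar share (0.256%) and the lowest Cd63 level, but replicate 4 had the highest Cd63 level at the next lowest share (4.01%). Cd151 did not keep that order with PBS either, at 5.22 CPM in replicate 1 and 9.15 CPM in replicate 2, where the acinar share was lower. What part acinar RNA had in these levels was not tested. The log2 change of Cd63 was -1.57 ± 1.34 (SE) and turned to 1.31 without PBS replicate 4. That of Cd151 was -1.21 ± 0.42 (SE) and -0.68 without that library. Cd151 did not pass the threshold in the main fit, and 13 of 17 alternative settings gave the same label. It passed in the other 4, without PBS replicate 1 (-1.48), with at least 5 CPM in 4 libraries (-1.26), with the DESeq2 Wald test (-1.26) and with the length trend removed (-1.39). As the genes were chosen on this comparison, these passes are a description and no support for a change.

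**Figure D4:**
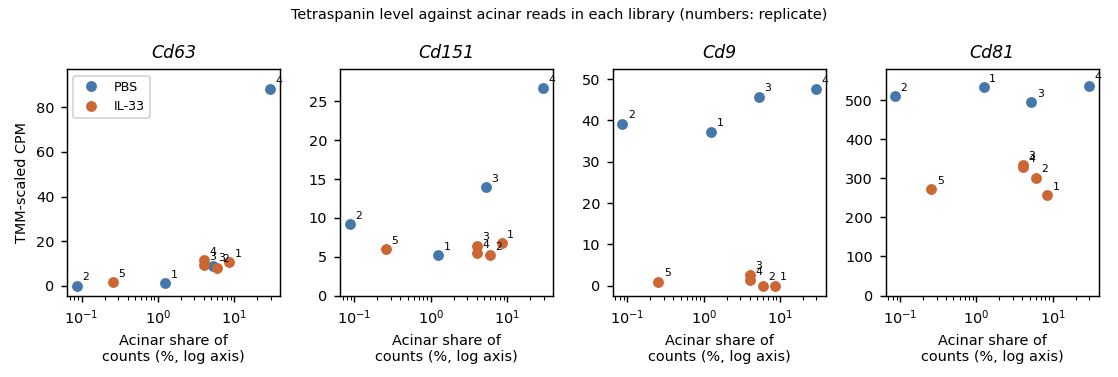
TMM-scaled CPM of Cd63, Cd151, Cd9 and Cd81 (y axes) against the share of counts in 14 acinar genes (x axis, percent, logarithmic) in each library, numbered by replicate. Cd63 and Cd151 are highest in PBS replicate 4 (29.8% acinar), and for Cd9 and Cd81 every PBS point lies above every IL-33 point. The IL-33 libraries span acinar shares of 0.256% to 8.50% only.

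Scaling by library size alone raised the median of all genes by 0.13 on the log2 scale and left Cd9 alone past the threshold, and the replicate number as a block left Cd9 and Cd81. The log2 change of Cd9 ran from -7.39 to -5.05 over the 17 alternative fits. These are descriptions of the values on which the genes were chosen, and no support for them.

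Because the library kit is not stated to keep strand, overlapping antisense genes were examined. Exons of Cd9 overlap those of Gm26728 by 218 bases, of Tspan32 those of Tspan32os by 271 and of Cd81 those of R74862 by 104. Gm26728 was at 0.119 ± 0.238 CPM (SD, n = 4) with PBS and 0 in all IL-33 libraries, Tspan32os at 2.05 and 1.85 CPM and R74862 at 1.5 and 1.72 CPM. These levels are small beside those of the tetraspanins, but reads in the shared bases cannot be told apart. Cd37 overlaps Tead2 by 13 bases, with Tead2 at 6.07 and 1.32 CPM. Cd151 overlaps Gm10575, which is not in the count table, by 193.

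The genes whose levels ran most like those of Cd9 over the 9 libraries, by Pearson correlation of log2(CPM + 1), were Bmp2, a bone morphogenetic protein (r = 0.992), the non-coding gene Gm26532 (0.984) and Btg2, an anti-proliferative gene (0.984). Bmp2 went from 63.0 ± 14.1 (SD, n = 4) to 1.91 ± 1.49 CPM (SD, n = 5) and Btg2 from 4182 ± 225 to 775.9 ± 105 CPM. Most like Tspan13 were Bhlhe40, a transcription factor of activated lymphocytes (r = 0.979), Vdac3, a mitochondrial channel (0.977), and the pseudogene Vdac3-ps1 (0.969), whose reads may be shared with Vdac3. Bhlhe40 stood at 905 ± 116 and 1545 ± 308.5 CPM. These are correlations over 9 libraries that fall into 2 groups, given as a description.

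The rest of the family was sparse. Of 23 other tetraspanins listed, 16 were in the table and 10 passed the filter on low counts, and 1 of these 10 was called with edgeR, against 25.2% of all genes. Their median log2 change was 0.0096. Rom1, known as a photoreceptor disc protein, rose by 2.71 ± 0.75 (SE) in log2, with an edgeR adjusted p of 0.0266 and means of 1.88 ± 1.53 (SD, n = 4) and 12.1 ± 8.35 CPM (SD, n = 5). Its PBS libraries lay at 0.355 to 4.00 CPM and its IL-33 libraries at 4.50 to 21.4 CPM. The call was lost without PBS replicate 2 (edgeR adjusted p = 0.0698) or 3 (0.0622), without IL-33 replicate 2 (0.0638) or 4 (0.0626) and with limma voom (0.0695).

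Tspan31 was the most abundant of the others, at 90.7 ± 18.5 and 117 ± 11.1 CPM (log2 change 0.36, edgeR adjusted p = 0.104). Its exons overlap 641 bases of Cdk4, a cell cycle kinase that rose by 0.83 in log2 with an edgeR adjusted p of 0.0035, so its reads are uncertain. It held 2.47% ± 0.383 of the summed tetraspanin level with PBS and 3.06% ± 0.233 with IL-33. Tspan14 and Tspan17 belong to the subfamily that escorts the protease ADAM10. Tspan14 stood at 65.5 ± 14.6 and 60.8 ± 8.04 CPM (edgeR adjusted p = 0.688) and Tspan17 at 14.3 ± 4.70 and 15.8 ± 5.72 CPM (edgeR adjusted p = 0.794). Adam10 itself, named after its values were seen, stood at 80.5 ± 29.7 and 70.6 ± 23.9 CPM (edgeR adjusted p = 0.706). Tspan3, at 24.3 and 31.3 CPM (edgeR adjusted p = 0.357), and Tspan4, at 6.93 and 7.52 CPM (0.942), did not pass the test either. Tspan2, Tspan5, Tspan6 and Tspan7 had group means of 1.11 to 8.91 CPM (edgeR adjusted p 0.172 to 0.740).

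Partners of the tetraspanins were called about as often as other genes, and in both directions. Of 30 listed genes 25 were tested, and 4 rose and 4 fell (32.0% called, against 25.2% of all genes, median log2 change -0.14). The genes that rose were 3 integrin chains and Ifitm2. Itga4, which binds VCAM-1 and fibronectin, was at 67.7, 90.4, 86.3 and 90.4 CPM with PBS and at 203.5, 163, 181, 203 and 185 CPM with IL-33. Its groups were far apart, and it rose by 1.16 ± 0.12 (SE) in log2 with an edgeR adjusted p of 2.8e-04. Itgb1, a beta chain for Itga4 and for other matrix-binding integrins, rose by 0.77 (edgeR adjusted p = 0.0163), and Itgal, a chain of LFA-1, by 0.50 (edgeR adjusted p = 0.0304). The other integrin chains listed, Itga3, Itga6, Itgb2 and Itgb7, were not called. Of these Itgb7, named after its values were seen, stood at 785.5 ± 183 and 924.8 ± 84.4 CPM (edgeR adjusted p = 0.296).

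The genes that fell were Hbegf, Epcam, Ptgfrn and Ifitm3. Hbegf, a growth factor precursor that binds Cd9, had means of 20.3 ± 2.97 (SD, n = 4) and 6.66 ± 2.63 CPM (SD, n = 5) and fell by 1.61 in log2 (edgeR adjusted p = 0.0044). Epcam, an epithelial adhesion protein found in tetraspanin patches, fell by 4.43 ± 0.97 (SE), with PBS libraries at 17.6, 14.4, 10.7 and 29.7 CPM. Its IL-33 libraries stood at 0.11, 0.652, 1.21, 2.19 and 0 CPM, on 2, 11, 26, 46 and 0 reads. Ductal markers, also epithelial, summed to 31.5 to 624 CPM with PBS and 13.1 to 82.2 CPM with IL-33 (0 of 5 called), and their part in the Epcam level was not tested. Ptgfrn, like Ifitm2 named after its values were seen, fell by 1.53 (edgeR adjusted p = 0.0371). Igsf8, the other immunoglobulin-type partner and named after its values were seen, stood at 11.0 ± 4.63 and 15.6 ± 4.22 CPM (edgeR adjusted p = 0.303). The interferon-induced membrane genes split, as Ifitm2 rose by 1.56 (edgeR adjusted p = 0.0338) and Ifitm3 fell by 1.38 (edgeR adjusted p = 0.0204). Itga4, Hbegf, Epcam and Itgb1 stayed called under all 17 alternative fits. Itgal lost the call when PBS replicate 1, 3 or 4 was left out, or the IL-33 replicates 3, 4 or 5. Ptgfrn lost it on leaving out PBS 2 or 4, or any of IL-33 2, 3 and 5, Ifitm3 without PBS replicate 3, and Ifitm2 without any library but PBS replicate 4 or IL-33 replicate 3. Itgal, Ptgfrn and Ifitm3 also lost it with the replicate block, and Itgal and Ptgfrn with library size alone. With the length trend removed Ptgfrn (log2 change -1.09) and Ifitm2 (1.09) lost it.

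Of 27 genes of endosomal sorting and vesicle release, the route taken by Cd63, 25 were tested, and 2 rose and 4 fell (24.0%, against 25.2% of all genes, median log2 change -0.21). Sdc4, a syndecan carried on vesicles through syntenin, was at 431, 456, 338 and 275 CPM with PBS and at 41.7, 15.3, 66.7, 30.3 and 17.0 CPM with IL-33. No libraries overlapped, and Sdc4 fell by 3.46 ± 0.43 (SE) in log2 with an edgeR adjusted p of 5.8e-04. Ap2m1, the subunit of the AP-2 adaptor that reads tyrosine sorting signals, rose by 0.97 (edgeR adjusted p = 0.0039). Laptm5, a lysosomal membrane protein of blood cells, rose by 0.77 (edgeR adjusted p = 0.0268).

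Rab27b, a GTPase that docks granules and vesicles, fell by 0.95 (edgeR adjusted p = 0.034). Stam, of the first sorting complex on endosomes, fell by 0.89 (edgeR adjusted p = 0.0391), and Ap3b1, of the AP-3 adaptor that sorts Cd63, by 0.55 (edgeR adjusted p = 0.0494). Sdcbp, which encodes syntenin and was named after its values were seen, stood at 347 ± 86.3 and 340.0 ± 61.4 CPM (edgeR adjusted p = 0.921). Sdc4 and Ap2m1 stayed called under all 17 alternative fits, while Laptm5 and Rab27b lost the call on leaving out PBS 1 or 2, or one of IL-33 4 and 5. Stam lost it without any library but PBS replicate 1, and Ap3b1 without any but IL-33 replicate 3. Laptm5, Rab27b, Stam and Ap3b1 all lost it with the replicate block. With the length trend removed Laptm5 (log2 change 0.72), Rab27b (-0.51) and Stam (-0.59) lost it. Library size alone took it from Rab27b, Stam and Ap3b1, no filter from Stam and Ap3b1, and limma voom from Stam.

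**Figure D5:**
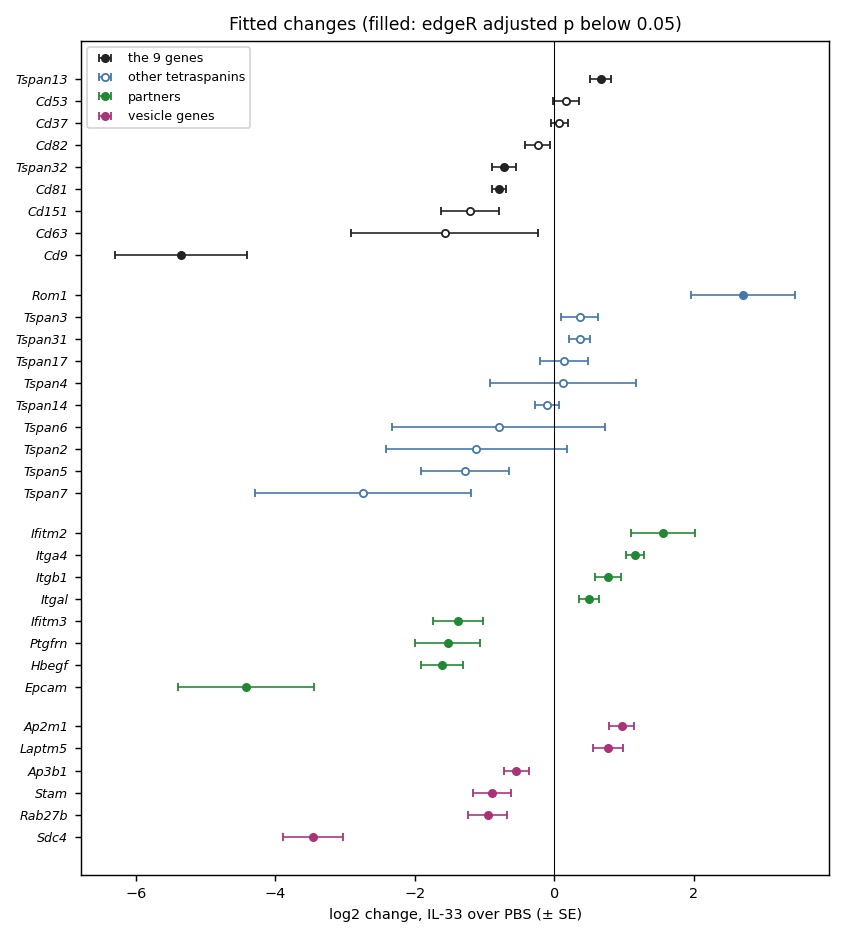
Fitted log2 change of IL-33 over PBS with its SE (x axis) for the 9 tetraspanins, the 10 other tetraspanins tested, and the called genes among partners and vesicle genes (y axis), filled where the edgeR adjusted p was below 0.05. Cd9 (-5.36) lies at the low end, Rom1 (2.71) is the filled point among the other tetraspanins, and partner genes lie on both sides of 0.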

How the data were processed

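Whole-number counts per Ensembl gene were deposited by the authors for 9 libraries. Per the labels' protocols, libraries were made with a low-input kit and read from both ends. Per the submitters' processing notes, the tools were STAR 2.7.7a, Salmon 1.6.0, Trimmomatic 0.39, FastQC 0.11.9, DESeq2 and Picard, and the build was GRCm38.p6. What each did, which annotation was used and whether counts are rounded estimates is not given in the sources used here. A second, normalized table was left unused.

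GENCODE M21 (GRCm38) gave symbols for 20607 of 20732 genes (99.4%), coordinates and merged exon lengths, and the RefSeq promoter table matched all 9 tetraspanins (13 windows). The genes, lists and tests were chosen with earlier results of these data known. edgeR 4.0.16 in R 4.3.3 (TMM, robust two-sided quasi-likelihood F-test, filterByExpr at a minimum count of 10) tested 14405 genes, adjusted by the Benjamini-Hochberg method, threshold 0.05. Total counts of 14216976 to 21020023 limit precision for genes with few reads, and floors of 3 counts hold counting error alone, as PCR copies could not be told from molecules. On simulated counts of 13567 genes, 92 had a 2-fold and 91 a 4-fold change. The test recovered 15.2% and 50.5% of them, with 1 false call. Far fewer genes changed there than the 25.2% called in the data, so these shares do not measure the power or error of this comparison. Counts of all 16 replicate pairs differed beyond sampling noise (chi-square per degree of freedom at least 52.6).

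The rule for named genes took the 9 tetraspanins, the 6 most abundant others and any called, the 6 smallest adjusted p of the partner and vesicle lists, the 2 most abundant genes of each marker list, Klrg1, Gata3, Il1rl1 and Ptprc, and the 3 genes most like Cd9 and Tspan13 with a mean of at least 5 CPM. Other genes were named after their values were seen. Alternatives were DESeq2 1.42.0 size factors (RLE), library size alone, no filter, the replicate number as a block, 5 CPM or more in 4 or more libraries, the DESeq2 Wald test, limma 3.58.1 voom with sample weights, the trend with gene length removed, a threshold of 0.01 and leaving out each library. The length of the longest coding transcript was added after seeing the data.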

Additional observations from a re-analysis of the deposited data

Results flagged for a closer look

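Of 38 groups of libraries examined, 3 held a library far from the others, where chance flags about 1 in 20. Cd63 stood at 88.1 CPM in PBS replicate 4 against 8.85 CPM in the next PBS library. Tspan5 stood at 20.1 CPM in the same library against 4.97 CPM in the next, and its group means were 8.34 and 3.43 CPM. That library held 29.8% acinar counts, and what part they had in these values was not tested. Tspan32 stood at 384 CPM in IL-33 replicate 3 against 269 CPM in the next IL-33 library. Without that library its log2 change was -0.86.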

How the results depend on the processing

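The count of changed genes, 3633, fell to 1976 with library size alone (67.4% of calls higher, against 54.1%), 1457 in the fit with a replicate block and 1786 at a threshold of 0.01. It ran from 2676 to 3695 when each library was left out. Of the 9 tetraspanins 4 passed the threshold, against 1, 2 and 2 in those 3 settings, 5 with the 5 CPM filter or DESeq2, and 4 to 6 without each library (6 without PBS replicate 1). Of the other tetraspanins 1 was called, against 2 with DESeq2 and 0 with limma voom (2 at an unadjusted p under 0.05) or at 0.01 (2), and 0 to 1 without each library (1 to 3 unadjusted in edgeR). The partner count of 8 became 5 with the block, 3 at 0.01 and 5 to 8 without each library (5 without PBS replicate 3 or IL-33 replicate 5). The vesicle count of 6 became 3 with library size alone, 2 with the block, 2 at 0.01 and 2 to 5 without each library (3 without PBS replicate 1, 2 without PBS replicate 2 or IL-33 replicate 4 or 5). Of 8 neighbouring pairs in the PBS order of levels 4 had ranges apart, and 3 with the longest coding transcript.

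Log2 changes that turned were those of uncalled genes. Cd63 was at 2.62 with limma voom, 1.49 with the block and, without each library, -1.99 to 1.31 (PBS replicate 4 left out). Cd37 was at -0.031 with the length trend removed, and at -0.0059 (IL-33 replicate 3 left out) to 0.14 without each library. With the length trend removed Cd53 was at -0.24, Tspan17 at -0.24, Tspan4 at -0.15 and Ptprc at 0.59 (edgeR adjusted p = 0.0458). Without each library Tspan17 ran from -0.043 to 0.31 and Tspan4 from -0.29 to 1.40. The cause was not tested. Same-numbered libraries of the 2 groups did not deviate together (correlations -0.0564 to 0.067 over 4 pairs, 0 of them best with its own number). So few pairs cannot settle whether the number marks a shared batch, and IL-33 replicate 5 has no partner in the block. Depth limits Cd9 with IL-33, where 0 to 58 reads were counted.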
